A study of Arabidopsis thaliana with 6 samples.

Results

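Brassinosteroids are plant steroid hormones that promote cell elongation, vascular development and growth in darkness. They are made from plant sterols by a chain of steroid-modifying enzymes, many of them cytochrome P450s, and are perceived at the cell surface by the receptor kinase BRI1. When the hormone binds, the kinase BIN2 is switched off and the transcription factors BES1 and BZR1 become active, and these factors are known to repress several of the synthesis genes as a feedback.

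The genes described here are 10 Arabidopsis loci of that pathway, chosen by locus. They are the synthesis genes DET2 (AT2G38050), DWF4 (AT3G50660), CPD (AT5G05690), ROT3 (AT4G36380), BR6OX1 (AT5G38970) and BR6OX2 (AT3G30180), the inactivation gene BAS1 (AT2G26710), the receptor gene BRI1 (AT4G39400), and the factors BES1 (AT1G19350) and BZR1 (AT1G75080). Each locus was read by the brightest Affymetrix probe set that points to that locus alone, a probe set being a group of short oligonucleotides that report on 1 transcript. Of the 10 loci, 8 had such a probe set, out of 20242 loci with one on the array. BES1 and BZR1 had none. Both are read by the same shared probe set, so their values here are 1 measurement that cannot be divided between the 2 genes, and it is kept out of the counts of members.

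The study asked how seedlings respond to heat and how light and temperature signals interact. The arrays analysed here were 3 from Col-0 seedlings that spent 30 min at 37 °C in the dark (heat) and 3 from Col-0 seedlings kept dark without the heat treatment (control). Col-0 is a standard laboratory accession, and the labels name no mutation or transgene in either group. Seeds of both groups had 72 h of cold at 4 °C, and the plants then grew on solid medium at 23 °C in days of 16 h light and nights of 8 h. The design text gives an age of 10 days, whereas the sample labels give 19, 20 and 21 days for heat replicates 1 to 3 and 16, 17 and 18 days for control replicates 1 to 3, so labelled age and heat run together.

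Values are log2 intensities as deposited, and a difference is always heat minus control. The heat treatment was evident in the chaperone gene HSP101, which read 11.03, 11.13 and 10.90 on the heat arrays and 2.96, 2.30 and 3.24 on the control arrays. Control replicate 2 stood apart from the other controls, with Pearson correlations of 0.976 and 0.978 over all probe sets, against 0.988 between control replicates 1 and 3. It was the lowest of the 3 controls for 41.3% of all probe sets, and for 6 of the 9 probe sets of the brassinosteroid genes. Results are also given without it, and where it was the lowest control its removal makes a fall larger by construction. The summed linear level of 6 leaf marker probe sets was 10280 to 11550 on heat arrays and 10920 to 12330 on control arrays, and 0 of the 6 passed the limma test described below (1 at an unadjusted p under 0.05). The sum of 6 root marker probe sets ranged from 67.6 to 103.8 on heat arrays and from 92.6 to 219.3 on control arrays, and 1 of the 6 fell, the root patterning gene SCR (-1.09, SE 0.18, limma adjusted p = 0.013, which reached 0.0672 with an array left out). The other 5 did not pass (PHT1;1 -0.83, SHR -0.20, TIP2;3 -0.06, EXPA7 -0.02 and SHV2 0.05). PHT1;1, read by a shared probe set, was the highest of the 6 on every array and so weighs most in the sum. The log2 gap between the 3′ and 5′ probe sets of actin, a sign of RNA integrity, was 1.62 to 1.72 on heat arrays and 1.82 to 1.95 on control arrays. The same gap was -0.41 to -0.22 on heat arrays and -0.45 to -0.20 on control arrays for GAPDH, and 0.26 to 0.32 on heat arrays and 0.07 to 0.25 on control arrays for ubiquitin. The part of root share and RNA integrity in the results was not tested. In RNA from whole seedlings, fewer cells of a type and less RNA per cell cannot be told apart.

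In heat, 1 of the 8 separately measured brassinosteroid genes fell and 0 rose at an adjusted p under 0.05, in a limma fit over all probe sets. BR6OX2, an enzyme of the last synthesis steps, fell to 48.5% of its control level, and the other 7 did not pass. The members' median difference was -0.39, beside -0.01 over all probe sets. It was -0.28 after median centring, -0.26 after quantile normalization and -0.24 after cyclic loess, beside 0.10, -0.01 and 0.0 over all probe sets. Of the 8, 6 had a negative difference as deposited, beside 51.7% of all probe sets. It was 5 of the 8 after median centring and 4 after each of the others, for which no such share of all probe sets was taken. With the dimmest 50% of probe sets left out, the 6 members that remained had a median of -0.39, beside -0.15 over the array. Over the whole array 6.34% of the 22746 probe sets passed, 4% falling (909) and 2.34% rising (533). Median centring of the arrays gave 679 falling and 671 rising, and cyclic loess gave 688 falling and 713 rising. At an unadjusted p under 0.05, 4 of the 8 genes passed, all lower after heat, where 21.4% of all probe sets passed. Without control replicate 2, 4 of the 8 fell (DWF4, BR6OX2, BAS1 and BRI1), while over the array 12% fell and 4.43% rose. It was the lowest control for DWF4, BAS1 and BRI1, and the highest for BR6OX2. Without heat replicate 3, 0 of the 8 passed in limma (3 at an unadjusted p under 0.05), while over the array 275 of 22746 fell and 379 rose.

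**Figure D1:**
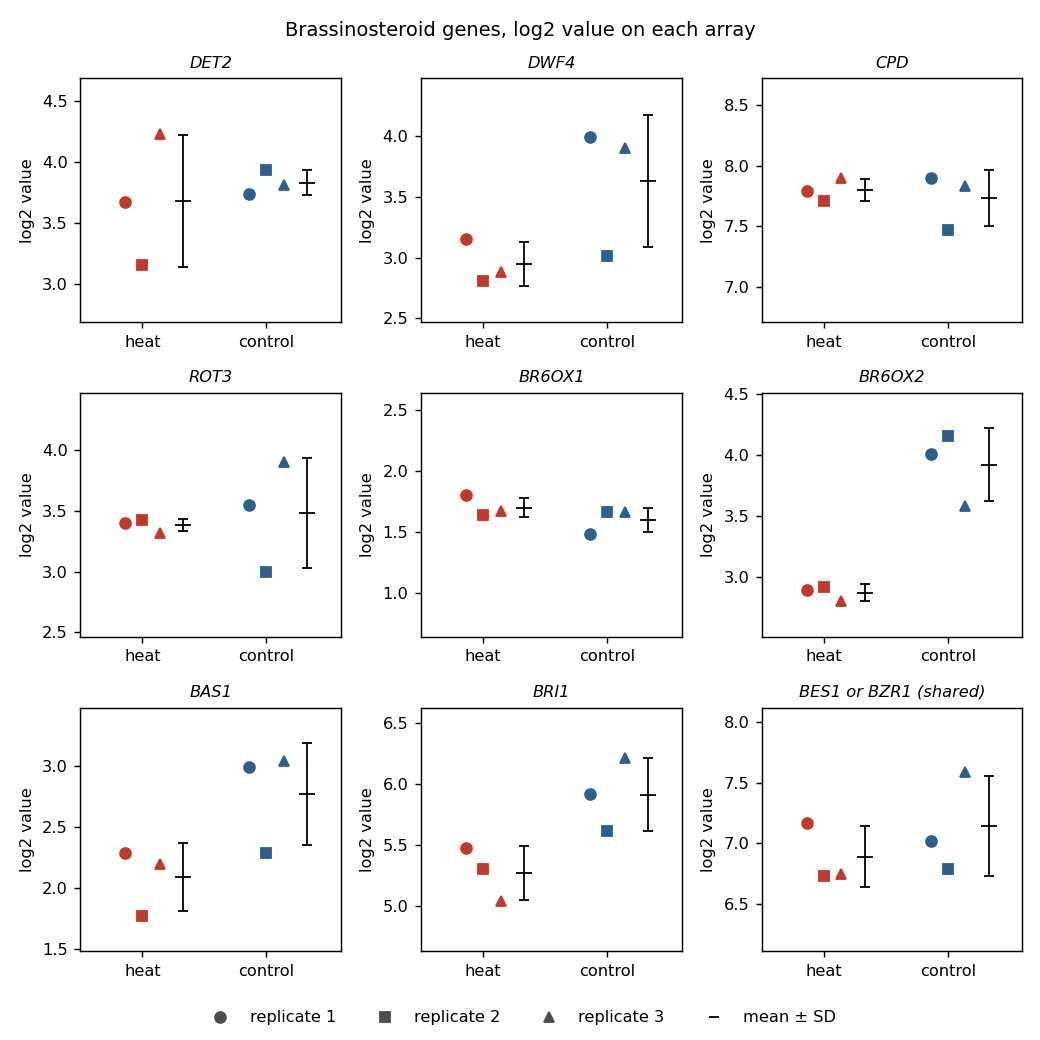
Log2 value of each brassinosteroid gene on each array (vertical axis), heat left and control right of each panel. Symbols are replicates 1 to 3, and bars are the mean ± SD of the 3 arrays. The groups are clear of each other for BR6OX2 and BRI1, while control replicate 2 lies near the heat arrays for DWF4 and BAS1.

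DET2 is a steroid reductase that acts early in synthesis. It read 3.67, 3.15 and 4.23 on the heat arrays and 3.74, 3.93 and 3.81 on the control arrays. The heat arrays spread over 1.09 log2 units and lay on both sides of the tight controls. The difference of -0.14 (95% interval -0.73 to 0.44, limma adjusted p = 0.778) turned sign after quantile normalization and after cyclic loess.

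DWF4 hydroxylates the steroid side chain and is regarded as a rate-limiting step of the pathway. It read 3.15, 2.81 and 2.88 after heat and 3.99, 3.01 and 3.90 in controls. Control replicates 1 and 3 were above all heat arrays, whereas control replicate 2 lay within the heat range. The difference was -0.69 (SE 0.26, 95% interval -1.29 to -0.09) and did not pass over all probe sets (limma adjusted p = 0.178). Without control replicate 2 it was -1.0 (SE 0.14, limma adjusted p = 0.00401).

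CPD, the P450 whose loss gives a dwarf with light-grown form in darkness, did not pass. It read 7.79, 7.71 and 7.90 on the heat arrays and 7.90, 7.47 and 7.83 on the control arrays, a difference of 0.07 (95% interval -0.26 to 0.40, limma adjusted p = 0.816). Without control replicate 2 the difference was -0.06. The controls themselves spread over 0.43 from lowest to highest.

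ROT3 is a P450 that acts on the side chain beside DWF4 in the pathway. It read 3.40, 3.42 and 3.32 after heat and 3.55, 3.0 and 3.90 in controls. The heat arrays lay within 0.10 of each other and inside the control range, which was 0.90 wide. The difference was -0.10 (95% interval -0.60 to 0.39, limma adjusted p = 0.811), with a sign that turned under the other normalizations.

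The last steps are carried out by the paralogous oxidases BR6OX1 and BR6OX2, of which BR6OX2 also makes brassinolide, the most active brassinosteroid. BR6OX2 read 2.89, 2.92 and 2.80 on heat arrays and 4.01, 4.16 and 3.58 on control arrays. Every heat array was below every control array, with a gap of 0.66 between the groups. The BR6OX2 probe set averaged the 51.4th percentile of the heat arrays and the 64.6th of the control arrays. The mean was 2.87 ± 0.07 after heat and 3.92 ± 0.30 in controls (SD, n = 3 arrays each), a difference of -1.05 (SE 0.16, 95% interval -1.42 to -0.67, limma adjusted p = 0.00934). Control replicate 2 was the highest control here, and the fall was -0.92 without it, still past the threshold. BR6OX2 no longer passed when heat replicate 3 was left out (-1.01, limma adjusted p = 0.0577), or when labelled age entered the model (-0.65, SE 0.32, limma adjusted p = 0.967). Since labelled age and heat run together, the fit with labelled age has little power to separate them.

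BR6OX1 read 1.80, 1.64 and 1.67 after heat and 1.48, 1.66 and 1.66 in controls, a difference of 0.10 (95% interval -0.15 to 0.36, limma adjusted p = 0.626). Its probe set averaged the 16.0th percentile of the heat arrays and the 14.7th of the control arrays, so a level this low cannot be told from background.

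BAS1 inactivates brassinosteroids by hydroxylation and is known to be induced when the hormone is abundant. It read 2.29, 1.77 and 2.20 on heat arrays and 2.99, 2.29 and 3.04 on control arrays. Control replicate 2 met the highest heat array, and the other controls were clear above. The difference was -0.68 (SE 0.23, 95% interval -1.22 to -0.14, limma adjusted p = 0.143), and -0.93 (SE 0.17, limma adjusted p = 0.012) without control replicate 2. The BAS1 probe set averaged the 31.7th percentile of the heat arrays and the 46.8th of the control arrays. Whether its heat values lay above background was not tested.

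BRI1, the main receptor, read 5.47, 5.30 and 5.04 after heat and 5.92, 5.61 and 6.21 in controls. All heat arrays were below all control arrays, as for 15.8% of all probe sets, but the gap was 0.13. The mean was 5.27 ± 0.22 after heat and 5.91 ± 0.30 in controls (SD, n = 3 arrays each), a difference of -0.64 (SE 0.18, 95% interval -1.07 to -0.21). It did not pass with all arrays (limma adjusted p = 0.0926) and passed without control replicate 2 (-0.79, SE 0.17, limma adjusted p = 0.0188).

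The probe set shared by BES1 and BZR1, the transcription factors at the end of the pathway, read 7.17, 6.73 and 6.75 on heat arrays and 7.02, 6.79 and 7.59 on control arrays. The groups overlapped, and control replicate 3 alone stood above all heat arrays. The difference was -0.25 (95% interval -0.77 to 0.27, limma adjusted p = 0.566), and it was -0.0234 without control replicate 3 and -0.42 without control replicate 2, neither passing. The activity of these factors is known to be set by phosphorylation, which the arrays do not measure.

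**Figure D2:**
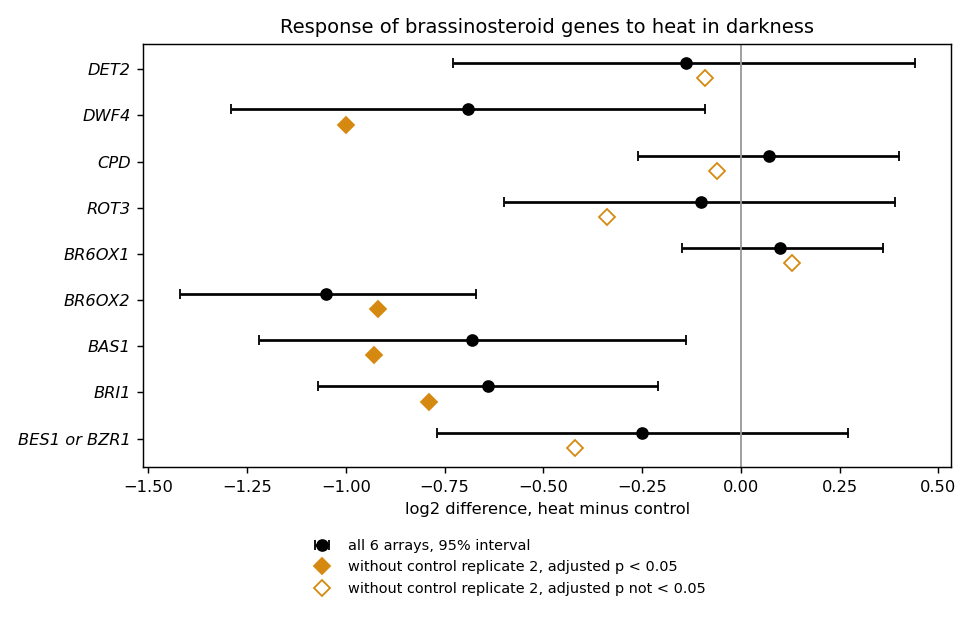
Log2 difference, heat minus control, of each brassinosteroid gene (horizontal axis). Black points are all 6 arrays with limma's 95% interval, and diamonds are the fit without control replicate 2, filled where adjusted p was under 0.05. DWF4, BAS1 and BRI1 have filled diamonds at -1.0, -0.93 and -0.79 although they did not pass with all arrays.

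The expression pattern over the 6 arrays nearest to that of BR6OX2, measured as the root mean square gap of log2 values after setting each gene's control mean to 0, belonged to AT5G61240 (gap 0.10). It was followed by SAHH2 (0.11), an S-adenosylhomocysteine hydrolase, CYCD3;1 (0.12), a D-type cyclin, and AT5G61590 (0.13), the wax repressor DEWAX. These genes differed by -0.99, -0.97, -1.05 and -1.14.

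The wider pathway was read by 59 probe sets for 64 further loci, of which 3 (BIM3, REF6 and TCP1) matched no probe set. After heat 4 of the 59 fell (6.78%, beside 4% of all probe sets) and 2 rose, while 45 had a negative difference (76.3%, beside 51.7% of all probe sets). It was 40 with the arrays centred on their medians, where the median of all probe sets was 0.10. On 19 of the 59 (32.2%) every heat array was below every control array, as on 15.8% of all probe sets. The reverse, every heat array above every control array, held on 5 of the 59 and on 2375 of all 22746. Without control replicate 2, 15 fell (25.4%, beside 12% of all probe sets) and 2 rose. With the dimmest 50% of probe sets left out, 42 of the 59 remained and 6 of these fell, beside 986 of 11373 over the array. The median of the 42 was -0.31, beside -0.15 over the 11373. With labelled age in the model, BEE2 alone passed among the 6 genes called here.

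Sterol enzymes supply the precursors of the hormone. Of 9 probe sets for these enzymes and CYP90D1, 1 fell, 0 rose and 8 did not pass (median -0.29). All 9 differences were negative as deposited, beside 51.7% of all probe sets. With the arrays centred on their medians 8 of 9 were negative, and the median of all probe sets was then 0.10. HYD1, a sterol isomerase, read 6.28, 6.48 and 6.43 after heat and 7.20, 6.90 and 6.95 in controls. It fell by 0.63 on the log2 scale (SE 0.12, limma adjusted p = 0.0269), with no overlap of the groups, though only the fit without control replicate 2 kept the call among those leaving out an array (limma adjusted p up to 0.111), and median centring (-0.52) and cyclic loess (-0.50) ended it. CYP90D1, a P450 redundant with ROT3, differed by -0.09 (limma adjusted p = 0.724), a sign that turned with the arrays centred on their medians. Among 4 inactivation probe sets 0 passed in limma (1 at an unadjusted p under 0.05, median -0.45, range -0.56 to -0.34). The median was -0.61 without control replicate 2, and 1 of the 4 then fell, BEN1 (-0.56, limma adjusted p = 0.0183), as did 12% of all probe sets.

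None of 9 receptor, co-receptor and receptor-modifier probe sets passed in the fit of all 6 arrays, and 5 had an unadjusted limma p under 0.05 (median -0.43), as had 21.4% of all probe sets. Without control replicate 2, 3 of the 9 fell, BKI1, BRL2 and SERK1, where 12% of all probe sets fell. BAK1, the co-receptor that joins BRI1, read 5.61, 5.52 and 5.51 on heat arrays and 5.94, 5.57 and 5.74 on control arrays (-0.21, limma adjusted p = 0.388). BKI1, the inhibitor that leaves the receptor when hormone binds, differed by -0.43 (limma adjusted p = 0.19), and by -0.59 without control replicate 2 (limma adjusted p = 0.0232). BRL2, a BRI1 relative, differed by -0.83 (limma adjusted p = 0.0704), and SERK1, a BAK1 relative, by -0.65 (limma adjusted p = 0.0751), both named after their values were seen. They stood at -1.01 and -0.84 without control replicate 2 (limma adjusted p = 0.0145 and 0.00395). The receptors BRL1 and BRL3, relatives of BRI1 found mainly in vascular tissue, differed by -0.01 and -0.26 (limma adjusted p = 0.982 and 0.246). The sign of BRL1 turned after median centring and with control replicate 1, control replicate 2, heat replicate 1 or heat replicate 3 left out. The BRL1 probe set averaged the 7.3rd percentile of the heat arrays and the 9.3rd of the control arrays, so its level cannot be told from background. On heat arrays BRL3, SERK1 and BRL2 averaged the 23.4th, 29.5th and 31.5th percentiles. Whether these values lay above background was not tested.

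Of 13 probe sets for cytoplasmic signalling proteins, 1 rose, 0 fell and 12 did not pass (median -0.13). The gene that rose was BSK2, one of the brassinosteroid-signalling kinases that act just below BRI1. BSK2 read 4.51, 4.72 and 4.6 after heat and 3.44, 3.37 and 3.15 in controls, a rise of 1.29 (SE 0.12, limma adjusted p = 0.000899), or 2.45-fold. Every heat array was more than 1 unit above every control array. Its relatives BSK3 and BSK1, named after their values were seen, had negative differences. BSK3 read 4.68, 4.66 and 4.8 after heat and 6.25, 5.19 and 5.66 in controls, with no overlap, and its difference of -0.98 did not pass (limma adjusted p = 0.0593) but did without control replicate 2 (-1.24, limma adjusted p = 0.00481). BSK1 differed by -0.29 (limma adjusted p = 0.278). BIN2, the kinase that restrains BES1 and BZR1, read 5.91, 5.48 and 5.69 on heat arrays and 6.27, 6.16 and 6.26 on control arrays. The BIN2 groups did not overlap, but the difference of -0.54 (SE 0.13, limma adjusted p = 0.0595) passed only without control replicate 2 (-0.58, limma adjusted p = 0.0386). BSU1, a phosphatase that opposes BIN2, differed by 0.40 (limma adjusted p = 0.206), with every heat array above every control array. Of the 13 probe sets, 4 had all heat arrays above all control arrays, and 2 had them all below. Over the array, 2375 of 22746 had them all above and 3597 all below.

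The probe sets for relatives and partners of BES1 and BZR1 gave 1 fall, 0 rises and 10 that did not pass (median -0.23). MYB30, a factor that acts with BES1 and is also known from defence, read 3.38, 2.69 and 2.80 after heat and 3.81, 3.85 and 4.26 in controls. It fell by 1.01 on the log2 scale (SE 0.21, limma adjusted p = 0.0312), and no longer passed if control replicate 1, control replicate 3, heat replicate 2 or heat replicate 3 was dropped (limma adjusted p up to 0.138). The BES1 homologues BEH1 to BEH4, named after their values were seen, did not pass and ranged from -0.50 for BEH1 to 0.20 for BEH4.

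**Figure D3:**
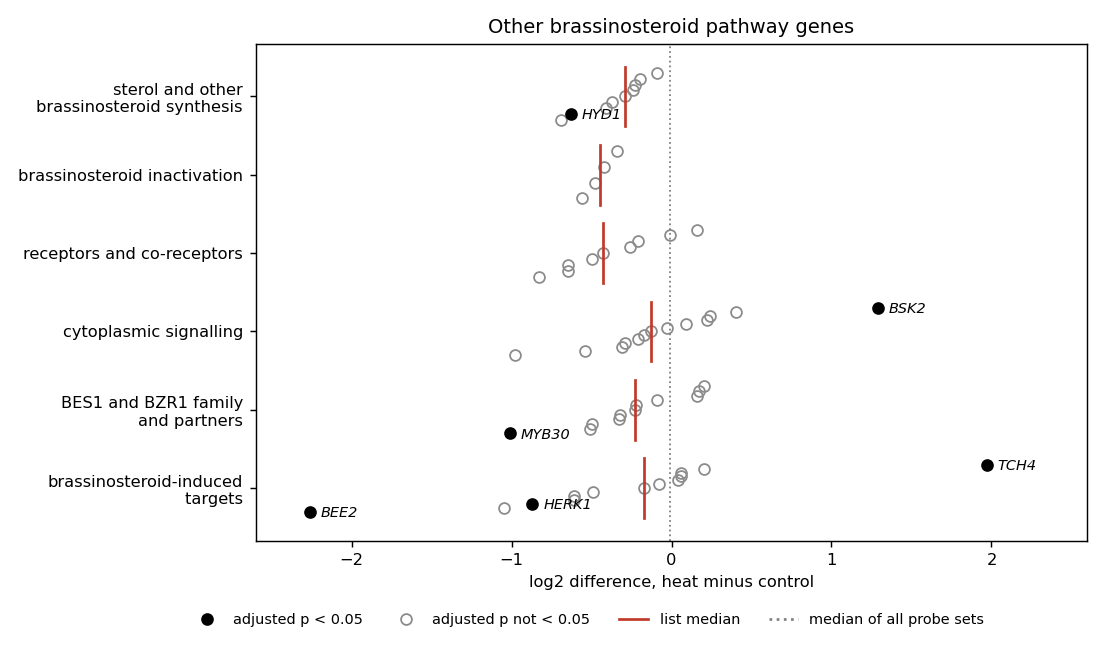
Log2 difference, heat minus control, of the 59 other brassinosteroid probe sets by role (horizontal axis). Filled points passed at an adjusted p under 0.05 and are named, red bars are list medians, and the dotted line is the median of all probe sets. Of the 59, 2 rose and 4 fell.

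Of 13 probe sets for genes known to be induced by brassinosteroid, 10 did not pass (median -0.17). Of the others 1 rose and 2 fell, where 2.34% of all probe sets rose and 4% fell. BEE2, a basic helix-loop-helix factor of the early growth response, read 4.10, 3.78 and 4.15 after heat and 6.14, 6.13 and 6.54 in controls. It fell by 2.26 on the log2 scale to 20.9% of the control level (SE 0.16, limma adjusted p = 0.000171). All heat arrays were far below all controls, and the call was kept under every alternative fit. Its relatives BEE1 and BEE3, named after their values were seen, differed by 0.04 (limma adjusted p = 0.907) and -0.61 (limma adjusted p = 0.0836). BEE3 was lower on every heat array than on any control array, and passed without control replicate 2 (-0.78, limma adjusted p = 0.00838).

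TCH4, a xyloglucan endotransglucosylase also known to respond to touch and heat, read 8.17, 7.26 and 7.75 on heat arrays and 5.97, 4.95 and 6.36 on control arrays. It rose by 1.97 (SE 0.37, limma adjusted p = 0.0221), or 3.92-fold, with the groups clear of each other. The call ended without any single heat array (limma adjusted p up to 0.102). HERK1, a receptor kinase of cell elongation, read 2.44, 2.52 and 2.16 after heat and 3.27, 3.27 and 3.18 in controls, and fell by 0.87 on the log2 scale (SE 0.13, limma adjusted p = 0.00741). The related kinases THE1 and FER, named after their values were seen, differed by -1.05 and -0.61 without passing (limma adjusted p = 0.0593 and 0.152), and passed without control replicate 2 (-1.29 and -0.84, limma adjusted p = 0.00821 and 0.0111).

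**Figure D4:**
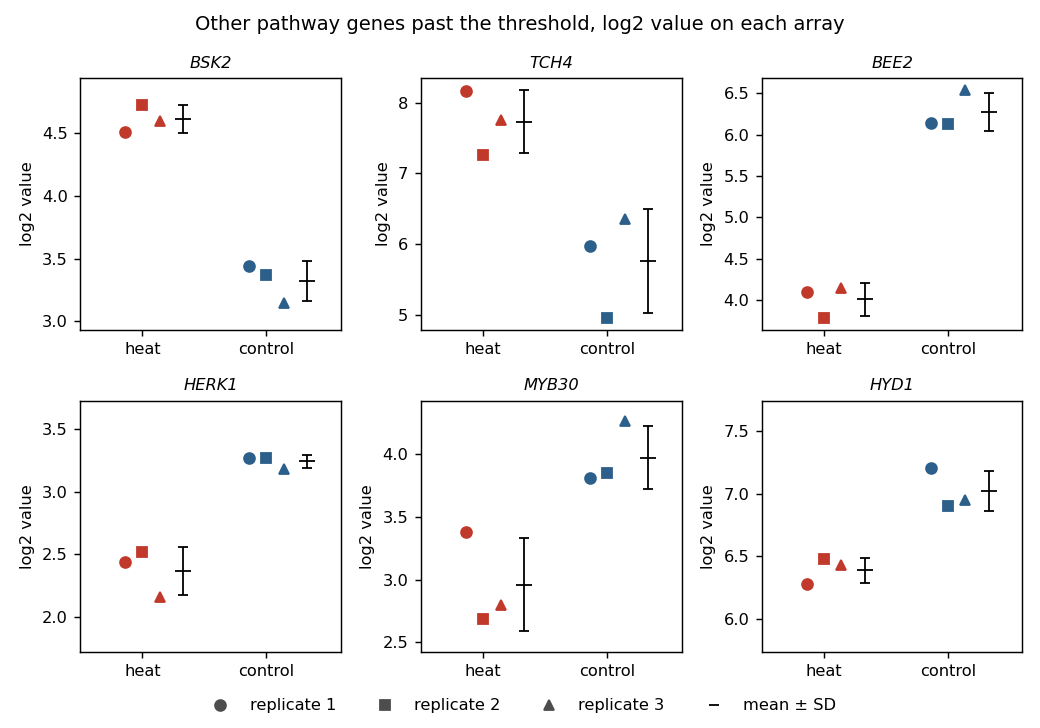
Log2 value on each array (vertical axis) of the 6 other pathway genes past the threshold, heat left and control right. Symbols are replicates 1 to 3, and bars are the mean ± SD of 3 arrays. BSK2 and TCH4 were higher on every heat array, and BEE2, HERK1, MYB30 and HYD1 lower.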

How the data were processed

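Total RNA was labelled with biotin and read on Affymetrix arrays, 3 per group. The log2 values were deposited by the authors per array. RMA is the only tool that the submitters' processing notes name, and its software, background step and annotation build are not stated there. A second table deposited by the authors held identical log2 values (largest gap 0) and linear ratios of each heat array over the control array of the same number, used only as a check (relative gap up to 6.3e-05). Values were used as deposited, with array medians of 2.78 to 2.81 on heat arrays and 2.84 to 2.95 on control arrays. No detection calls were used, so whether the values of dim probe sets lay above background was not tested. Arrays carry no read depth, and their number limits the precision.

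Gene identifiers in the authors' table were matched to the TAIR10.1 reference gene table. Of 22810 probe sets, 64 controls were left out. Of the 22746 tested, 20653 listed 1 gene, 959 several genes and 1134 none. Of the 20653, 20482 matched a locus of the reference. A linear model with group alone was fitted to all 22746 with limma 3.58.1 (R 4.3.3), with two-sided moderated tests, Benjamini-Hochberg adjustment and a threshold of 0.05. The fit was tested on simulated data, and the outcome is not given here and is not used in the results. Intervals are limma's 95% intervals without adjustment. The labels do not say that replicates were grown apart, so the p-values cover only the spread among these arrays, possibly technical.

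The members and lists were chosen with earlier results of these data known. Genes named are all members, up to 2 rises and 2 falls per list, 7 preset pathway genes (BAK1, BIN2, BKI1, BSU1, CYP90D1, BRL1 and BRL3), the 4 patterns nearest to the member with the smallest p, and genes marked as named later. HSP23.6-MITO rose by 7.99 in the heat check. The planned descriptions of promoter motifs and protein identity, and the test of BES1 against BZR1, were not run. The planned permutation test of BR6OX2 against BR6OX1 is not reported, since the BR6OX1 level cannot be told from background and the test could not pass at this number of arrays. Alternatives were other normalizations, filters on dim probe sets, a trend in the moderation, the replicate number or labelled age as a term, and each array left out.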

Additional observations from a re-analysis of the deposited data

How the results depend on the processing

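Of 123 repeats of the member differences, 110 kept direction and side of the threshold, and the cause of the other changes was not tested. The filters on dim probe sets, the intensity trend and the replicate block left each difference unchanged (BR6OX2 at -1.05 in each). Direction could therefore not turn in those repeats. Only BR6OX2 passed in the main fit, so the other members kept their side of the threshold by still not passing. Among members and preset pathway genes, sign turns with all 6 arrays kept, none past the threshold, were ROT3 after median centring (0.0057), quantile normalization (0.07) and cyclic loess (0.05), DET2 after quantile normalization (0.0178) and cyclic loess (0.0245), CYP90D1 (0.0173) and BRL1 (0.10) after median centring, and BAK1 with labelled age as a covariate (0.0118). With an array left out, CPD turned without control replicate 2 (-0.06), ROT3 without control replicate 3 (0.10) and DET2 without heat replicate 2 (0.12). BRL1 also turned with an array left out, as given above, and none of these passed. With arrays left out in turn, DWF4 ranged from -1.0 to -0.51, CPD from -0.06 to 0.15, ROT3 from -0.34 to 0.10, DET2 from -0.42 to 0.12, BR6OX2 from -1.21 to -0.92, BAS1 from -0.93 to -0.52, BRI1 from -0.79 to -0.49, the probe set of BES1 and BZR1 from -0.42 to -0.0234 and BRL1 from -0.12 to 0.09. Falls ranged from 0 to 4 among members, from 2 to 15 among the other 59 probe sets and from 275 to 2719 over the array, and rises from 1 to 2 among the 59 and from 371 to 1008 over the array. The highest of each range came without control replicate 2, except the 2 rises. With labelled age as a covariate 0 members fell, 1 of the 59 fell and 0 rose, and over the array 10 fell and 129 rose, while BR6OX2 stood at -0.65. Among the 59, 7 fell with an intensity trend, beside 982 of 22746 over the array. With the dimmest 25% of probe sets left out, 7 of the 54 that remained fell, beside 1030 of 17059 over the array. Median centring moved the median of all probe sets to 0.10, against -0.01 as deposited. No member had a second single-locus probe set, so averaging probe sets could not be tried and is not counted. The repeats for the 59 were chosen after seeing the data. Replicate numbers did not pair the arrays (same-number deviations correlated at -0.26, -0.24 and -0.24), and the replicate block gave 410 falls over the array and 2 among the 59, where HYD1 (-0.63) and MYB30 (-1.01) no longer passed.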
